A study of Mus musculus with 7 samples.

Results

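Neuronal marker genes were examined in cultures of primary mouse oligodendrocyte precursor cells (OPCs), the glial precursors from which myelinating oligodendrocytes arise. The set comprises 10 genes named by symbol (Tubb3, Dcx, Stmn2, Snap25, Syt1, Nefl, Nefm, Map2, Celf4 and Rbfox3), chosen with earlier results of these data known. Each matched 1 of the 48795 Ensembl identifiers in the deposited count table. All 10 passed the filter on low counts, which 15934 genes passed. The cells were wild-type CD-1 OPCs taken from pups of postnatal days 4 to 7, with the sexes in equal numbers. Control cultures, 4 libraries numbered 1 to 4, received no treatment, and PE cultures, 3 libraries numbered 2 to 4, received 20 µM phenylephrine (PE), an α1-adrenergic agonist, for 1 hour. Control and PE libraries of one number also share a code in their titles, while control 1 has no PE partner. The labels give no vehicle, no purification step and no count of pups or cultures behind a library, so the spread between libraries may be partly technical. Their protocol fields also mention tamoxifen, virus injection and immunoprecipitation in cortex, and whether any of these applied to the cultures is not given.

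Neurons are recognised by a cytoskeleton and a release machinery of their own. Class III β-tubulin (Tubb3), doublecortin (Dcx), stathmin 2 (Stmn2), MAP2 and the neurofilament subunits build and stabilise axons and dendrites, SNAP-25 and synaptotagmin 1 drive the fusion of synaptic vesicles, and CELF4 and RBFOX3 (the NeuN antigen) bind neuronal RNA. Many such genes are held silent outside neurons by the repressor REST, and several, Map2 among them, are also transcribed in immature glia. A transcript of one of these genes in a glial culture can therefore come from a few neurons or from the glial cells themselves, and in bulk RNA fewer cells of a type cannot be told apart from less RNA per cell.

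The libraries held 12837463 to 17962339 counted reads, so that 3 reads correspond to 0.170 to 0.238 CPM (counts scaled to library size). OPC markers were abundant. The OPC genes Pdgfra and Olig2 averaged 1959 and 912 CPM in control, and all 10 OPC markers examined averaged at least 10 CPM. Each PE library deviated from its group mean most like the control of its own number (correlation across genes 0.736, 0.674 and 0.789 for numbers 2, 3 and 4). PE 2 was nearly as like control 1 (0.666), and PE 4 also resembled control 3 (0.364).

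In untreated cells the neuronal marker genes ranged from well expressed to barely detected. Map2 gave the most reads, at 943 ± 29.6 CPM (SD, n = 4). Rbfox3 gave the fewest, with 0.476 to 1.68 CPM in the controls. The summed level of all 10 was 1269 ± 145 CPM, of which Map2 alone supplied 62.0% to 84.0% in the control libraries. The other 9 genes together reached 180 to 552 CPM.

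Since longer transcripts collect more reads, levels of different genes were compared per kilobase of annotated exon. On this scale Map2 (57.3 ± 1.80 CPM per kb) was above Tubb3 (21.0 ± 5.72) in all 4 control libraries and the ranges did not overlap. Nefm (20.4 ± 20.8 CPM per kb) could not be placed against Tubb3, being above it in 2 controls and below it in 2. Dcx followed at 9.02 ± 2.68 CPM per kb and Nefl at 5.07 ± 3.90, with overlapping ranges but Dcx higher in every control. These 5 genes were at or above the level that 45.2% of tested genes did not reach. Celf4 (1.89 ± 0.342 CPM per kb), Snap25 (1.46 ± 0.248), Stmn2 (1.01 ± 0.568) and Syt1 (0.631 ± 0.0981) formed a lower group, in which neighbours kept their order in 3 of 4 controls and their ranges overlapped. Rbfox3, at 0.178 ± 0.0859 CPM per kb, was below Syt1 in all 4 controls without overlap, and only 1.81% of tested genes had a lower level per kilobase. For comparison, Olig2 and Pdgfra stood at 360 ± 45.0 and 196 ± 42.2 CPM per kb.

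**Figure D1:**
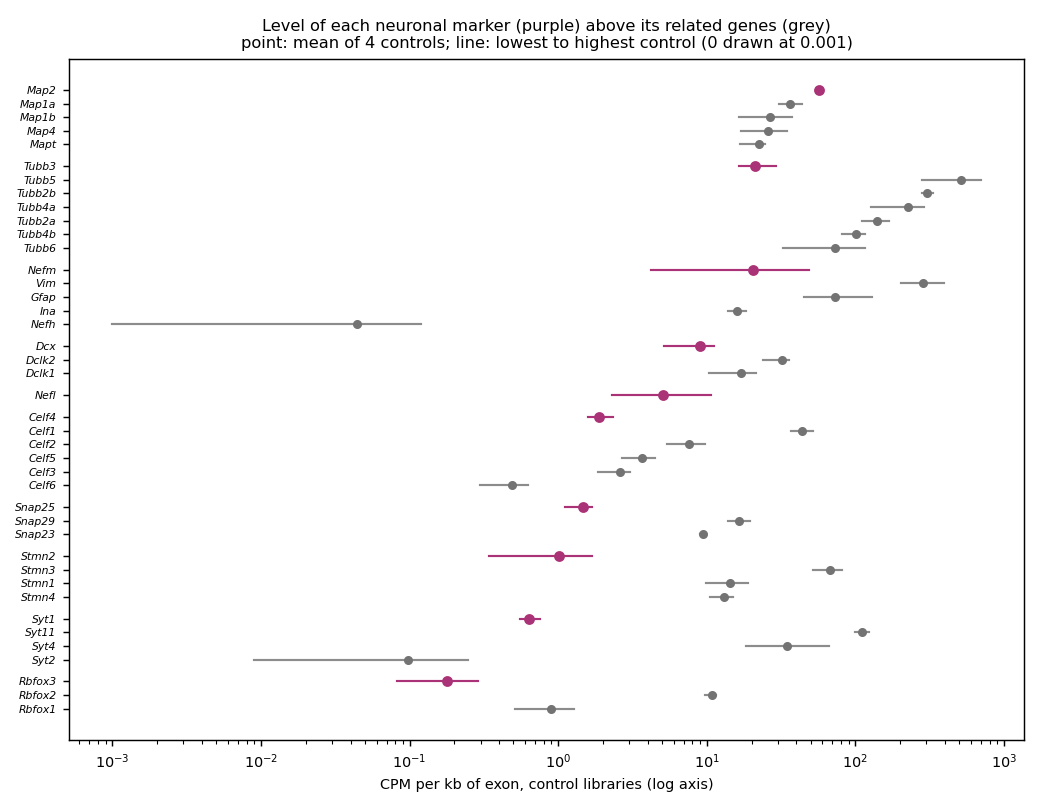
Level per kilobase of exon in the 4 control libraries (log axis) for each neuronal marker gene (purple) and, under it, genes of the same or a related family (grey), with the mean as a point and the lowest to highest control as a line. Map2 (57.3 CPM per kb) lay above its relatives, whereas Syt1 (0.631) lay far below Syt11 (111) and Rbfox3 (0.178) below Rbfox2 (10.8).

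Sequence around annotated starts is shown for the most and least abundant gene. It is also shown for 2 genes with a shared pattern across replicate numbers (Tubb3 and Dcx, described below). Of the 10 genes, 5 (Map2, Tubb3, Dcx, Syt1 and Rbfox3) had a window in the RefSeq table for GRCm38.p6, and each window runs from 250 bases before to 50 bases after an annotated start, 5′ to 3′ on the gene's strand. Capitals mark CG dinucleotides. The Rbfox3 window lies inside the gene, whose 5′ end on the minus strand is at 118911597, so it surrounds an internal start.
Map2, chr1:66175079-66175378, plus strand: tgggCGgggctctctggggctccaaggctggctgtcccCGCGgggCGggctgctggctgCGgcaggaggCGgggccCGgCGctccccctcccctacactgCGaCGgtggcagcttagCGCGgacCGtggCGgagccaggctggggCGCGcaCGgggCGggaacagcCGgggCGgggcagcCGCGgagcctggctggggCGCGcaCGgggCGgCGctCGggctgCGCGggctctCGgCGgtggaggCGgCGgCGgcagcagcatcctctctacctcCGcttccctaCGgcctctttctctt
Tubb3, chr8:123411303-123411602, plus strand: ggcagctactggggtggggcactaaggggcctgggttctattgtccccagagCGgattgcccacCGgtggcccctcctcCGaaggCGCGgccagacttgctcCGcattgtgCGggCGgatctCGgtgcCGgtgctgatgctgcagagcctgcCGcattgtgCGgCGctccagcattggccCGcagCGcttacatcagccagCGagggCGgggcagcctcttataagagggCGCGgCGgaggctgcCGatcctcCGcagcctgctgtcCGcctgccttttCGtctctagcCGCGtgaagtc
Dcx, chrX:143933075-143933374, minus strand: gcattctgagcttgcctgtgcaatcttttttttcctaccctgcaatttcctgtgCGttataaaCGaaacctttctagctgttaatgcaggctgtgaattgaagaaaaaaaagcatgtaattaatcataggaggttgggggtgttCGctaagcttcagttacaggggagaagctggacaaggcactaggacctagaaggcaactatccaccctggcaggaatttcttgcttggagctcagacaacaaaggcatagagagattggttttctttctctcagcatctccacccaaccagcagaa
Rbfox3, chr11:118760992-118761291, minus strand: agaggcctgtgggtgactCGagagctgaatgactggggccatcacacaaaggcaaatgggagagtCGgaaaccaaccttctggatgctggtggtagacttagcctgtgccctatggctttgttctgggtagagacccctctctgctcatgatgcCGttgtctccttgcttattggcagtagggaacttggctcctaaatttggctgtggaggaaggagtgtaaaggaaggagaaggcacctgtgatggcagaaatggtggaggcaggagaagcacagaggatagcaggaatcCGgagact

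The Map2 window held 37 CG dinucleotides, more than 94.4% of all 32851 windows in the table, and the Tubb3 window held 26. The Dcx and Rbfox3 windows held 3 and 4, where the median window has 7. For Rbfox3 this describes an internal start, and no window covered the upstream end of the gene. The TATA motif TATAAA, searched on both strands, occurred in both Dcx windows and in no other of the 7 windows, against 13.6% of all windows. The Dcx windows overlap and hold the same copy. In the printed window it lies nearer the upstream edge than the start. Only exact matches were counted, at any position, so near matches in other windows were not scored. The left part of the REST recognition element (TTCAGCACC, both strands) was in none of the 7 windows and in 0.371% of all windows, and its right part (GGACAG) was in the windows of Map2 and Tubb3 and in 1 of the 2 of Syt1, against 22.2% of all windows.

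Among the microtubule genes, Map2 encodes the dendritic microtubule-associated protein 2, which is made in several splice forms that gene-level counts do not separate. It lies on chromosome 1 from 66175273 to 66442583 (GRCm38, GENCODE M21). Its levels were 971, 901, 947 and 951 CPM in controls 1 to 4 and 949, 938 and 903 CPM in PE libraries 2 to 4. All 7 libraries were thus within a narrow band, and only 1.61% of tested genes varied less over the controls in log2 CPM. Per kilobase Map2 exceeded Map1a (0.637 of the Map2 level), Map1b (0.468), Map4 (0.451) and the axonal tau gene Mapt (0.392).

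Tubb3 (chromosome 8, 123411424 to 123422015) encodes class III β-tubulin, the isotype most used to identify neurons. It measured 38.1, 54.7, 33.4 and 31.0 CPM in controls 1 to 4 and 52.1, 33.6 and 30.3 CPM in PE 2 to 4. Both libraries of number 2 were the highest and both of number 4 the lowest. Every other β-tubulin examined was more abundant per kilobase, from 3.49 times the Tubb3 level for Tubb6 to 24.3 times for the general isotype Tubb5.

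Dcx (X chromosome, 143855842 to 143933311) encodes the microtubule-associated protein of migrating young neurons. Its CPM was 130, 142, 119 and 65.2 in controls 1 to 4 and 160, 125 and 60.6 in PE 2 to 4. As for Tubb3, number 2 was highest and number 4 lowest in both groups. The related doublecortin-like kinases Dclk1 and Dclk2 were at 1.88 and 3.55 times the Dcx level per kilobase.

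Stmn2 (chromosome 3, 8509360 to 8561606), a microtubule regulator of growing axons, was low. It measured 1.90, 6.48, 9.51 and 4.75 CPM in controls 1 to 4 and 7.99, 8.39 and 5.19 CPM in PE 2 to 4. Control 1 had the least and the libraries of number 3 the most. Its relatives Stmn1, Stmn3 and Stmn4 were 14.1, 66.5 and 12.9 times as abundant per kilobase.

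The neurofilament genes varied widely between replicate numbers. Nefm, the medium subunit (chromosome 14, 68082590 to 68124846), measured 132, 282, 24.2 and 32.9 CPM in controls 1 to 4 and 242, 25.4 and 41.2 CPM in PE 2 to 4. The highest control was thus 11.7 times the lowest, a spread in log2 CPM that exceeded that of 99.6% of tested genes, while each PE library stayed near the control of its number. Nefl, the light subunit that all neurofilaments require (chromosome 14, 68083863 to 68089095), measured 7.75, 36.0, 8.21 and 16.6 CPM in controls 1 to 4 and 29.7, 8.47 and 21.4 CPM in PE 2 to 4. It too peaked in number 2, but the Nefm to Nefl ratio was not constant, at 17.0, 7.85, 2.94 and 1.98 in controls 1 to 4 and 8.13, 3.00 and 1.93 in PE 2 to 4. The heavy subunit gene Nefh was at 0.177 ± 0.211 CPM in control with at most 0.476 CPM in any library, whereas the related internexin gene Ina was at 51.8 ± 5.92 CPM. Nefl and Nefm lie on opposite strands and share 1108 annotated exon bases, 32.8% of Nefl and 19.2% of Nefm. The library kit does not mark strand and the treatment of shared reads is not given, so the levels of these 2 genes and their ratio are uncertain.

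The synaptic genes were uniformly low. Snap25 (chromosome 2, 136713453 to 136782428), the membrane SNARE of synaptic vesicle fusion, measured 10.2, 11.5, 10.5 and 7.52 CPM in controls 1 to 4 and 11.5, 12.2 and 8.77 CPM in PE 2 to 4, with number 4 lowest in both groups. The widely expressed Snap23 and Snap29 were 6.43 and 11.2 times as abundant per kilobase. Syt1 (chromosome 10, 108497650 to 109010982), the calcium sensor of fast release, measured 6.32, 4.60, 5.50 and 4.64 CPM in controls 1 to 4 and 6.65, 5.31 and 4.56 CPM in PE 2 to 4, with no number apart from the others. In the same family Syt11 was at 176 and Syt4 at 54.5 times the Syt1 level per kilobase, while Syt2 averaged 0.750 CPM and did not pass the filter.

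Of the RNA-binding proteins, Celf4 (chromosome 18, 25477632 to 25754157) measured 14.3, 13.7, 20.2 and 16.6 CPM in controls 1 to 4 and 13.4, 21.0 and 18.6 CPM in PE 2 to 4. Both libraries of number 3 were the highest and both of number 2 the lowest. Celf1 and Celf2, which are expressed in many tissues, were 23.2 and 4.05 times as abundant per kilobase. Celf5 and Celf3 were at 1.95 and 1.37 times the Celf4 level per kilobase, and Celf6 was below it at 0.261 times. Rbfox3 (chromosome 11, 118489762 to 118911597) measured 0.476, 0.904, 1.68 and 1.07 CPM in controls 1 to 4 and 0.849, 2.22 and 1.04 CPM in PE 2 to 4, from 7 to 28 reads a library. The exact 95% Poisson interval was 0.191 to 0.980 CPM in control 1 and 1.10 to 2.46 CPM in control 3, which covers counting error only. Rbfox1 and Rbfox2 were 5.02 and 60.6 times as abundant as Rbfox3 per kilobase.

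**Figure D2:**
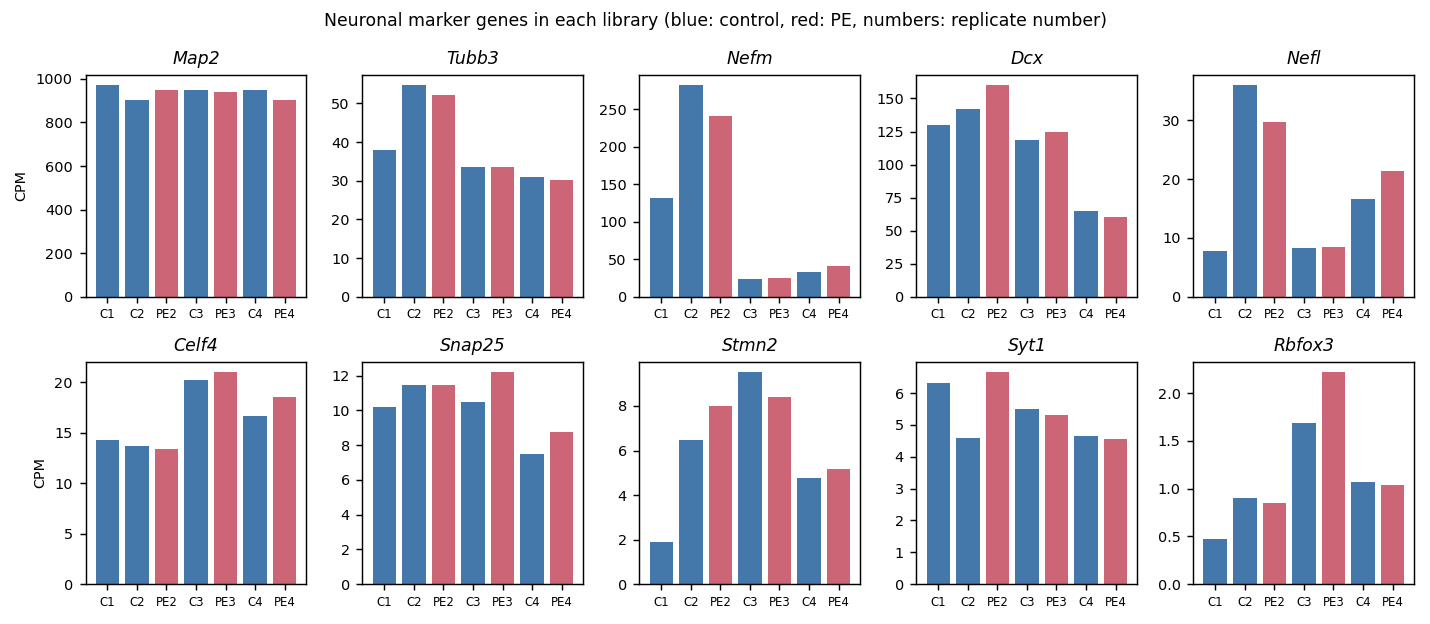
CPM of each neuronal marker gene in the 7 libraries, control in blue and PE in red, labelled C or PE with the replicate number, each panel with its own axis from 0. Control and PE bars of one number have similar heights, while Nefm ranged from 24.2 to 282 CPM between numbers and Map2 from 901 to 971 CPM.

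Replicate numbers were compared in a model that also held treatment (edgeR quasi-likelihood F test, Benjamini-Hochberg adjusted over all tested genes). Of the 10 neuronal marker genes 8 differed among numbers at an adjusted p under 0.05, against 68.3% of all tested genes, so the count is close to the background. Nefm had the smallest adjusted p (5.68e-13), followed by Dcx (1.53e-09), Nefl (3.06e-08), Tubb3 (7.90e-07), Stmn2 (2.89e-05), Celf4 (0.00158), Rbfox3 (0.0130) and Snap25 (0.0211). Syt1 (adjusted p = 0.268) and Map2 (adjusted p = 0.695) did not pass. The calls for the low genes were less firm. With DESeq2, Snap25 (adjusted p = 0.282) and Rbfox3 (adjusted p = 0.279) were not called. Without number 3, Celf4 (adjusted p = 0.0538) and Rbfox3 (adjusted p = 0.309) were lost, and without number 4, Snap25 (adjusted p = 0.879).

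The genes that differed did not share one order of replicate numbers. Tubb3, Dcx, Nefl and Nefm had both libraries of number 2 as the highest 2 of the 7, a pattern that 11.5% of tested genes showed. Stmn2, Celf4 and Rbfox3 had both libraries of number 3 highest, as did 10.5% of tested genes. Tubb3, Dcx and Snap25 had both libraries of number 4 lowest, against 18% of tested genes. Some other summed marker levels were also highest in number 2, including those of OPCs. The 10 OPC markers summed to 12610 and 12770 CPM in control 2 and PE 2 and 10660 to 12230 CPM elsewhere. The largest term of this sum in number 2 was Gpr17, at 3268 and 3250 CPM. It was at 4587 CPM in control 1 and 668 to 919 CPM elsewhere. Vcan was also highest in number 2, at 774 and 809 CPM. Other OPC genes did not follow the sum. Pdgfra was highest in PE 4 at 2351 CPM, and Olig1 and Cspg4 in PE 3 at 1921 and 544 CPM. Olig2 and Ptprz1 were highest in control 4, at 1043 and 3086 CPM. A list of 33 further pan-neuronal genes summed to 3783 and 3807 CPM in number 2 and 2833 to 3536 CPM elsewhere. Its largest term, Dpysl3, was at 1512 and 1522 CPM in number 2, 1547 CPM in control 1 and 790 to 817 CPM elsewhere. Syt4 was also highest in number 2, at 258 and 313 CPM. Gap43 and Elavl4 were instead highest in number 4, at 260 and 269 CPM and at 79.7 and 75.1 CPM in control and PE. The summed level of 9 astrocyte markers was 1722 and 1761 CPM in control 2 and PE 2 and 1178 to 1475 CPM in the other libraries, with Gfap, the astrocyte intermediate filament, at 544 and 537 CPM in number 2 and 190 to 258 CPM elsewhere. Without Gfap the sum was 1177 and 1224 CPM in number 2, 1219 and 1237 CPM in number 3 and 920 to 1078 CPM in the other libraries. The glutamate transporter gene Slc1a3 and the transcription factor gene Sox9 were highest in number 3, at 429 and 418 CPM and at 194 and 208 CPM in control and PE, against 343 and 346 CPM and 126 and 142 CPM in number 2. The 8 endothelial and mural markers summed to 123 and 139 CPM in number 2 and 46.9 to 79.0 CPM elsewhere. The endothelial marker Kdr was at 22.5 and 33.0 CPM in number 2 and 4.46 to 15.5 CPM elsewhere. Another endothelial marker, Cldn5, was the only 1 of the 8 below 1 CPM on average in control. The part of these cells in the neuronal marker levels was not tested.

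Most genes of inhibitory neurons and their precursors were highest where Stmn2, Celf4 and Rbfox3 were. Of 11 tested genes of the GABAergic list, 8 had both libraries of number 3 as the highest 2, while Gad1 and Npy, a neuropeptide gene, had those of number 2. The homeobox genes Dlx1 and Dlx2, which specify forebrain interneurons, measured 15.3 and 9.25 CPM in control 3 and 16.9 and 8.15 CPM in PE 3. In the other 5 libraries Dlx1 was at 1.90 to 5.54 CPM and Dlx2 at 2.11 to 3.11 CPM. The transcription factor gene Sp8 was at 8.60 and 8.95 CPM in number 3 and at 1.16 to 3.40 CPM elsewhere, and Gad2, a GABA-synthesising enzyme, at 8.21 and 5.94 CPM against 1.29 to 2.97 CPM. Slc32a1, the vesicular GABA transporter that defines GABA-releasing terminals, did not pass the filter, at 3.10 and 1.82 CPM in number 3 and 0.170 to 0.678 CPM elsewhere. Of the markers of mature interneuron classes, Sst was at 1.10 and 0.633 CPM in number 3 and at most 0.0680 CPM elsewhere. Pvalb did not follow number 3, with 0.194 to 0.920 CPM over the 7 libraries and the most in PE 2, and Npy was highest in number 2, at 4.75 and 6.15 CPM against 1.49 and 1.58 CPM in number 3. Vip had no read in any control. All 11 tested genes of the list differed among numbers (edgeR, same test), beside 68.3% of all genes.

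**Figure D3:**
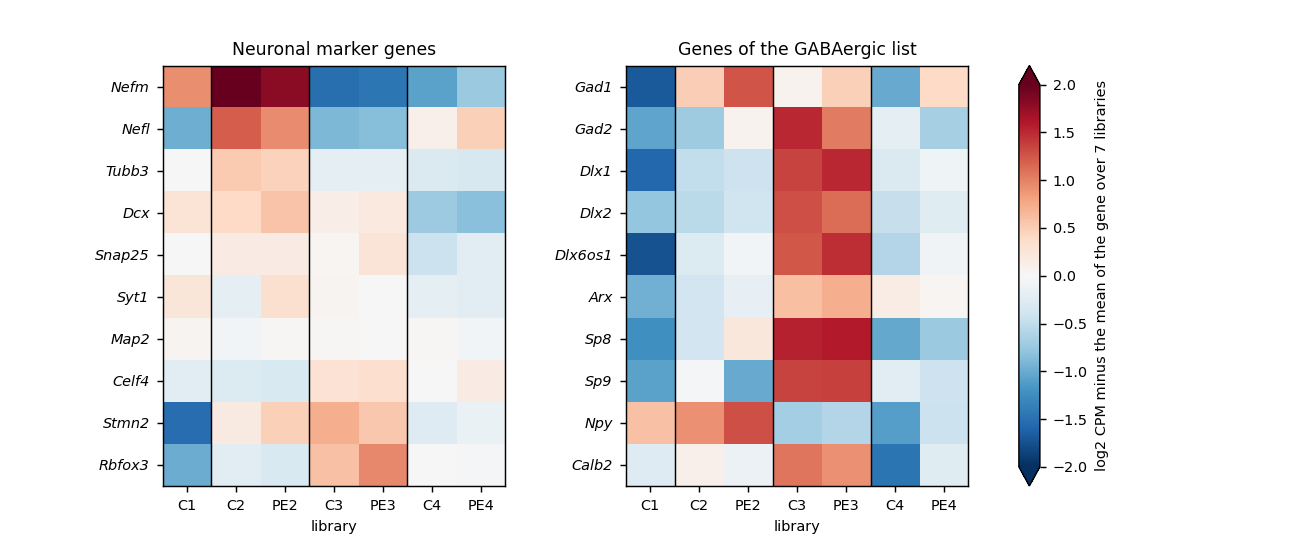
Log2 CPM of each gene minus its mean over the 7 libraries, for the neuronal marker genes (left) and 10 of the 11 tested genes of the GABAergic list (right), with libraries in columns and vertical lines between replicate numbers. Nefm, Nefl, Tubb3 and Dcx were highest in number 2, and Stmn2, Celf4, Rbfox3 and 8 of 11 GABAergic genes in number 3.

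Markers of excitatory neurons were close to the detection limit. Of 12 glutamatergic genes 8 averaged below 1 CPM in control. The vesicular glutamate transporters Slc17a7 and Slc17a6 were at 0.225 ± 0.0632 and 0.419 ± 0.167 CPM, and the cortical projection neuron factors Neurod2, Neurod6 and Tbr1 at 0.0727, 0.103 and 0.470 CPM. Bcl11b, a transcription factor of several neuron classes, was the most abundant member at 8.85 ± 3.28 CPM. Their summed level was 12.4 to 25.2 CPM in control and 21.0 to 28.3 CPM in PE.

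By contrast, most other pan-neuronal genes were well expressed. Of 33 such genes 29 averaged at least 10 CPM in control, with a median of 51.8 CPM. The growth cone genes Dpysl3 and Gap43 were at 1167 ± 419 and 192 ± 58.9 CPM, the neuronal RNA-binding protein gene Elavl3 at 150 ± 14.8 CPM, Mapt at 169 ± 28.3 CPM and the vesicle SNARE gene Vamp2 at 100.3 ± 22.3 CPM. Nefh and the synaptic vesicle gene Sv2b were the 2 members below 1 CPM and did not pass the filter. Of the neurogenic progenitor genes, Sox4 (502 ± 106 CPM), Tubb2b (693 ± 59.3 CPM) and Sox11 (238 ± 57.8 CPM) were abundant and 4 of 14 genes averaged below 1 CPM. The repressor gene Rest itself was present at 59.7 ± 3.63 CPM, between 53.5 and 62.6 CPM in all 7 libraries, and all 10 genes of its complex averaged at least 10 CPM in control.

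After 1 hour of PE none of the 10 neuronal marker genes was called as changed. The edgeR quasi-likelihood test without pairs called 0 of 10 (0% of all tested genes) and within pairs 0 of 10, against 0.54% of all tested genes. At an unadjusted p under 0.05 the members numbered 0 in either fit, against 918 of the 15934 tested genes within pairs and 71 without. Limma-voom and DESeq2 called 0 members in either design. Over all tested genes they called 87 and 33 within pairs and 0 and 2 without. With 10 genes, a count of 0 is close to each of these backgrounds. The largest fitted changes within pairs were those of Syt1 (log2 change 0.15 ± 0.17 SE, adjusted p = 0.987) and Snap25 (0.15 ± 0.12, adjusted p = 0.978). Over the 10 genes the median log2 change was 0.06, and over all tested genes it was -0.00113. Control and PE libraries did not separate for any of the 10, as they did for 1.26% of tested genes, and 1 of the 10, Snap25, had ratios at or above 0 in all 3 pairs (0.00, 0.22 and 0.22), where 25.4% of tested genes kept one direction.

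Under the fitted model, the width of the intervals shows what size of change the 3 pairs could have missed. For Map2 the 95% interval of the fitted change was 0.943 to 1.05-fold, for Dcx 0.957 to 1.12-fold and for Tubb3 0.889 to 1.07-fold. For the low genes it was wider, 0.866 to 1.42-fold for Syt1, 0.846 to 1.30-fold for Stmn2 and 0.709 to 1.70-fold for Rbfox3. The neurofilament genes differed in direction between pairs. Nefm had log2 ratios of -0.23, 0.07 and 0.32 and Nefl of -0.27, 0.04 and 0.36 in pairs 2, 3 and 4, so that their fitted changes of 0.003 ± 0.079 and 0.03 ± 0.12 average opposite values. For both genes pairs 2 and 4 lay outside the fitted 95% interval (log2 -0.166 to 0.171 for Nefm, -0.217 to 0.273 for Nefl). The standard errors come from a model that uses all tested genes and do not measure the spread between the 3 pairs of 1 gene. Without the pairs the standard errors were wider, with a change of -0.20 ± 1.03 for Nefm and of -0.02 ± 0.09 for Map2, where the paired fit gave -0.005 ± 0.038 for Map2.

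**Figure D4:**
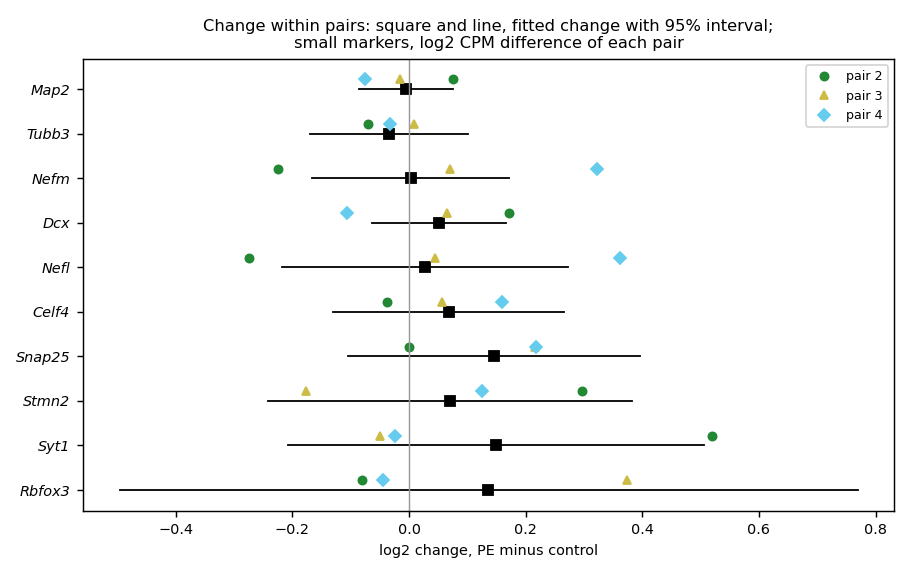
Log2 change of each neuronal marker gene after PE. Black squares and lines give the fitted change within pairs with its 95% interval, and small markers the log2 CPM difference of pairs 2, 3 and 4. Every interval includes 0, and Rbfox3 has the widest one.

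Among related and other neuronal genes few rose. Of 29 tested relatives of the neuronal marker genes 2 rose within pairs and 0 fell (edgeR, adjusted p under 0.05, beside the 0.54% of all genes). Dclk1, the kinase related to Dcx, measured 158, 281, 272 and 328 CPM in controls 1 to 4 and 351, 332 and 441 CPM in PE 2 to 4. All PE libraries lay above all controls, and the rise was 0.35 ± 0.04 on the log2 scale (adjusted p = 0.000632), with ratios of 0.32, 0.29 and 0.43 in the pairs. Syt4, a synaptotagmin of secretory vesicles, measured 131, 258, 74.9 and 71.9 CPM in controls and 313, 122 and 152 CPM in PE. The groups overlapped, with controls 1 and 2 above PE 3, and the rise within pairs was 0.67 ± 0.10 (adjusted p = 0.00226), with ratios of 0.28, 0.70 and 1.08. Syt4 was also the 1 of 31 tested pan-neuronal genes that rose. Of 11 GABAergic genes Gad1, a GABA-synthesising enzyme, alone rose. It measured 4.96, 22.9, 17.1 and 7.97 CPM in controls 1 to 4 and 38.8, 22.5 and 21.4 CPM in PE 2 to 4, and the groups overlapped. The rise within pairs was 0.83 ± 0.13 (adjusted p = 0.00585), with ratios of 0.76, 0.39 and 1.41. Without pairs neither Dclk1, Syt4 nor Gad1 was called. Of 5 glutamatergic, 10 neurogenic progenitor and 10 REST complex genes 0 passed in either direction. The median log2 change was -0.004 for the pan-neuronal, 0.15 for the GABAergic, 0.22 for the glutamatergic, -0.002 for the progenitor and -0.03 for the REST list. Among markers of other cells Olig2 fell by 0.19 (adjusted p = 0.0334), and 0 of 9 oligodendrocyte, 9 astrocyte, 6 microglial and 7 endothelial and mural genes passed. Summed levels were 2195 to 6974 CPM in control and 2271 to 4197 CPM in PE for the oligodendrocyte list, where control 1 alone gave the 6974 CPM and the other controls 2195 to 4122 CPM, and 29.7 to 54.6 and 38.0 to 55.9 CPM for the microglial list.

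The profile over the 7 libraries was compared with those of 13155 other genes by the root mean square difference of centred log2 CPM. Map2 was most like Depdc5, P4hb and Casc3 (0.018, 0.021 and 0.023, where the median gene had 0.235), all of them nearly constant. Dcx was most like Epb41l4b, Tfcp2l1 and Itm2a (0.097 to 0.112, median 0.551). Nefm had no close match, Tcim, Srxn1 and Arl4d being the nearest at 0.237, 0.242 and 0.268 (median 1.44). For the mean profile of the 10 genes, Pcdhga12, Col9a3, Lrig1 and Acvr1 were among the 5 nearest (0.056 to 0.076, median 0.355).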

How the data were processed

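The authors deposited raw whole-number read counts per Ensembl gene, 1 column per library, with no normalization. The tools listed, per the submitters' processing notes, are bcl2fastq 2.17, STAR and HTSeq, with GRCm38 (mm10) as the build. The annotation release, strand setting and filters were not given in the sources used here. Libraries were made, per the labels' protocols, with SMART-Seq v4 and Nextera XT. Groups and numbers came from sample titles. No value column (0) was unmapped. Symbols were found for 48349 identifiers. Exon lengths and coordinates came from GENCODE M21 on GRCm38 and promoters from RefSeq.

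edgeR 4.0.16 (R 4.3.3) was run with TMM, filterByExpr (minimum count 10, minimum total 15) and the quasi-likelihood F test, Benjamini-Hochberg adjusted over all tested genes, threshold 0.05, without and with the replicate number as a block. The numbers were taken to pair the libraries because every same-number correlation of deviations exceeded 0.1. Some correlations between different numbers exceeded it as well, up to 0.666 for PE 2 with control 1. In the blocked fit control 1 adds nothing to the PE effect. CPM uses TMM-adjusted totals of the tested genes and log2 CPM a prior count of 2. Libraries of one group all differed by more than counting error (chi-square over genes, divided by its degrees of freedom, 11.1 to 92.9). Alternatives used limma-voom 3.58.1, DESeq2 1.42.0, other scalings, no filter and left-out libraries. The procedure was tested on simulated counts.

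Members and lists were chosen with earlier results of these data known. From each list, the text names genes past the paired test and then the most abundant; Rest, Elavl3, Vamp2, Cldn5, Sv2b, Gad2, Dlx2, Sp8, Slc32a1, Sst, Vip, Npy, Pvalb, Slc17a6, Slc17a7, Neurod2, Neurod6 and Tbr1 were named after their values were seen. Some genes of these lists and comparisons are not reported here.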

Additional observations from a re-analysis of the deposited data

Results flagged for a closer look

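In 2 of 41 genes examined, the 10 neuronal marker genes and their relatives, 1 of the 4 control libraries stood far from the others, and in both it was control 1. Mapt was at 127 CPM in control 1 and at 180 to 185 CPM in the other controls. Dclk2 was at 254 CPM in control 1 and at 356 to 375 CPM in the others. Chance flags about 1 group in 20, and both genes were flagged by the gap of the lowest library relative to the range. None of the 10 neuronal marker genes was flagged.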

How the results depend on the processing

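The number of neuronal marker genes called after PE was 0 under every alternative run, including the replicate block, and the number that differed among replicate numbers was 6 to 8 of 10. The summed control level moved by less than 1 SD under each scaling and left-out control. Among all genes the paired calls numbered 86, with 194 without the filter, 33 by DESeq2 and 253, 52 or 254 without number 2, 3 or 4, and the genes that differ among replicate numbers numbered 10888 and by DESeq2 7194. Some log2 changes changed sign, none of them called, and without pairs these included Nefl (0.22), Nefm (-0.20) and Rbfox3 (0.38) when a library was left out. With the replicate block Nefm was 0.003 and without it -0.20. With raw totals Dcx was -0.003 without pairs and Nefm -0.003 within them, and with limma-voom Dcx was -0.041 and Nefm -0.043 in the same fits. With 1 library left out and no pairs the ranges were -0.30 to 0.18 for Tubb3, -0.30 to 0.32 for Dcx, -0.094 to 0.18 for Syt1, -0.19 to 0.88 for Nefl, -1.82 to 0.71 for Nefm, -0.038 to 0.001 for Map2, -0.02 to 0.29 for Celf4 and -0.13 to 0.72 for Rbfox3. With 1 number left out within pairs they were -0.008 to 0.12 for Dcx, -0.042 to 0.22 for Stmn2, -0.033 to 0.25 for Syt1, -0.18 to 0.27 for Nefl, -0.14 to 0.23 for Nefm, -0.04 to 0.029 for Map2 and -0.066 to 0.22 for Rbfox3. The cause was not tested. Depth limits Rbfox3 most, at 7 to 28 reads a library.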
